A study of Mus musculus with 10 samples.

Results

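The histone genes of mouse splenic B cells were followed through activation and division in culture. Members were all genes whose symbol begins with Hist1h to Hist4h, H1f, H2af or H3f, with the transcripts of a symbol summed. They number 45 of the 6610 genes listed, 36 of them replication-dependent (Hist1h, Hist2h and Hist4h symbols) and 9 of them variant (H1f, H2af and H3f symbols). The RNA came from B lymphocytes of C57BL/6 mice, an inbred strain, in 10 libraries that form 5 groups of 2. Resting, unstimulated cells are the naive group. Cells given a pulse of antibodies to IgM, the antigen receptor, and to CD40, a co-stimulatory receptor, were collected at 48 h, when they were either undivided (div0) or divided (div12). These are Phase I, and each Phase I replicate was a pool of 4 to 5 mice. In Phase II, div12 cells were kept for another 48 h with anti-CD40 at 0.12 µg/ml, and a sort separated those that did not divide again (div12_48_u) from those that did (div12_48_d). The labels name no transgene or deletion, and do not say how resting cells were purified. RNA was taken from 1000000 cells in Phase I and 500000 cells in Phase II, so phase, culture time and cell input cannot be told apart.

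Histones package DNA into nucleosomes, with H2A, H2B, H3 and H4 in the core and H1 on the linker. Replication-dependent histone genes lie in clusters and are made mainly in S phase. Their mRNAs usually end in a short stem-loop, bound by the protein SLBP, in place of a poly(A) tail. Variant histones such as H2A.Z and H3.3 come from scattered genes with polyadenylated mRNAs and are made through the cell cycle.

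Values are TPM, transcript abundances per length that add up to 1000000 in each library, printed with replicate 1 before replicate 2. Means are given ± SD (n = 2 libraries). Log2 changes (± standard error) were computed on log2(TPM + 1), a scale that understates changes of low genes. The words rise and fall are kept for genes that passed limma's two-sided test at an adjusted p under 0.05 (Benjamini-Hochberg). The test covered 4427 genes, those reaching 1 TPM in 2 or more libraries. Of the members, 32 of 36 replication-dependent and 8 of 9 variant genes passed that filter, and Hist1h1t, a testis linker histone, was at 0 in all 10 libraries. Hist1h4a would not have passed without its naive libraries, Hist1h4f without div12, nor Hist1h3f without either div0 or div12_48_d, so their calls in comparisons with those groups are descriptions only. The counts and shares below, those of calls that held under alternatives included, still contain these genes. The sequencing depth is unknown. B cell markers summed to 72070 and 68040 TPM in naive, 57990 and 55560 in div0, 42490 and 38350 in div12, 59980 and 56310 in div12_48_u, and 38370 and 42880 in div12_48_d, so that the divided groups were lowest. The naive libraries also held RNA typical of other blood cells: erythroid markers summed to 2679 and 3207 TPM there against 12.3 to 44.6 TPM in the 8 other libraries, myeloid markers to 847 and 2632 against 88.5 to 303.5 TPM, and NK markers to 84.8 and 132 against 3.37 to 6.49 TPM. Replicates differed most in the naive group, where the log2 ratio between replicates had an SD of 0.55 over genes, against 0.26 to 0.33 in the other groups. P-values measure the spread between libraries. With 2 libraries per group, many members did not overlap between groups and yet were not called. The share of all genes without overlap was not counted, so lack of overlap is a description only.

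The stem-loop sets the classes apart in sequence, and its letters are shown for the members whose levels carry the results below. Each line is 30 bases of the annotated transcript (GENCODE M21, build GRCm38), with the 16-base stem-loop in capitals.
Hist1h4i: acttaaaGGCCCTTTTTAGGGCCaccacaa
Hist1h1c: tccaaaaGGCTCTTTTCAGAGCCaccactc
Hist2h2ac: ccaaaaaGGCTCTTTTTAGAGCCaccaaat
Hist1h2bj: atccaaaGGCTCTTTTCAGAGCCacgcaca
Hist1h3c: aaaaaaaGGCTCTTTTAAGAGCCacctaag
Hist1h3g: ctttaaaGGCTCTTCTTAGAGCCacccatc
H2afx: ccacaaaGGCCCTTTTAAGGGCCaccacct

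The histone 3′ stem-loop was found within 100 bases after the stop codon in 27 of the 28 replication-dependent members searched. In these 27 the loop began 21 to 54 bases after the stop codon. The remaining member, Hist2h3b, has only 37 annotated bases there, so the search cannot tell whether a loop lies beyond them. Among variants it was found in 1 of 8, H2afx, and among all protein-coding genes in 48 of 20966 (0.229%). The first strand of the stem read GGCTCT in all 17 stem-loops of types H1, H2A, H2B and H3, and GGCCCT in 8 or GGTCCT in 2 of type H4. H2afx, an H2A variant, carried the GGCCCT form. The 7 other searchable variants all had the poly(A) signal letters AATAAA after the stop codon and H2afx did not. Hist1h1c had both the stem-loop and AATAAA, as did Hist1h1d, Hist4h4, Hist1h4j, Hist1h4a, Hist2h3c1 and Hist1h1t. The annotated transcript ran on past the loop for 840 bases in Hist1h1c, 4884 in Hist1h1d and 2445 in Hist4h4. A match describes the letters and does not show which 3′ end was made.

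Promoter letters were counted in both classes. The letters CCAAT, read on both strands, occurred in the 300-base window around the start, most of it upstream, of 27 of 34 replication-dependent members (79.4%), 6 of 8 variants (75%) and 41.1% of all genes. TATAAA, which does not overlap that motif, occurred in 18 of 34 (52.9%), 1 of 8 (12.5%) and 15.7%. CCAAT shares were thus close between the classes, and the difference in TATAAA was not tested. The 100 bases before the start are shown for 3 members with different patterns of expression, from RefSeq (GRCm38.p6), with CCAAT or its reverse complement ATTGG in capitals. They lie at chr13:23745522-23745621 (minus strand), chr13:23738707-23738806 (plus strand) and chr3:137864387-137864486 (plus strand).
Hist1h3c: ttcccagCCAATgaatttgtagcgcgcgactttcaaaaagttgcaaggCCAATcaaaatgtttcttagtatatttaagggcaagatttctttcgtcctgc
Hist1h1c: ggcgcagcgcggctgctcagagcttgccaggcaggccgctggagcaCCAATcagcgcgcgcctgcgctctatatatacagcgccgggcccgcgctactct
H2afz: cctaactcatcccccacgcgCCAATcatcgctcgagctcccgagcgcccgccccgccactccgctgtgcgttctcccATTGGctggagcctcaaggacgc
Hist1h3c held the motif in 2 places, H2afz once on each strand and Hist1h1c once, and none of these stretches held TATAAA.

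Only 36 of 67 replication-dependent and 8 of 15 variant protein-coding histone genes of GENCODE M21 were listed, so all sums and shares leave the others out. Variant genes supplied nearly all of the listed histone TPM. Replication-dependent genes made up 3.97% to 6.38% of it in the 10 libraries. Variants summed to 9702 and 7102 TPM in naive, 6331 and 6551 in div0, 6209 and 6665 in div12, 5540 and 6043 in div12_48_u, and 6085 and 6341 in div12_48_d. Replication-dependent genes summed to 661.5 and 396 TPM in naive, 339 and 340.3 in div0, 385 and 407 in div12, 229 and 355 in div12_48_u, and 360.5 and 398.5 in div12_48_d. The summed replication-dependent level was therefore highest in a resting library, and the ranges of div12 and div12_48_d overlapped. No replication-dependent gene averaged 100 TPM over the libraries, while 5 variants did.

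**Figure D1:**
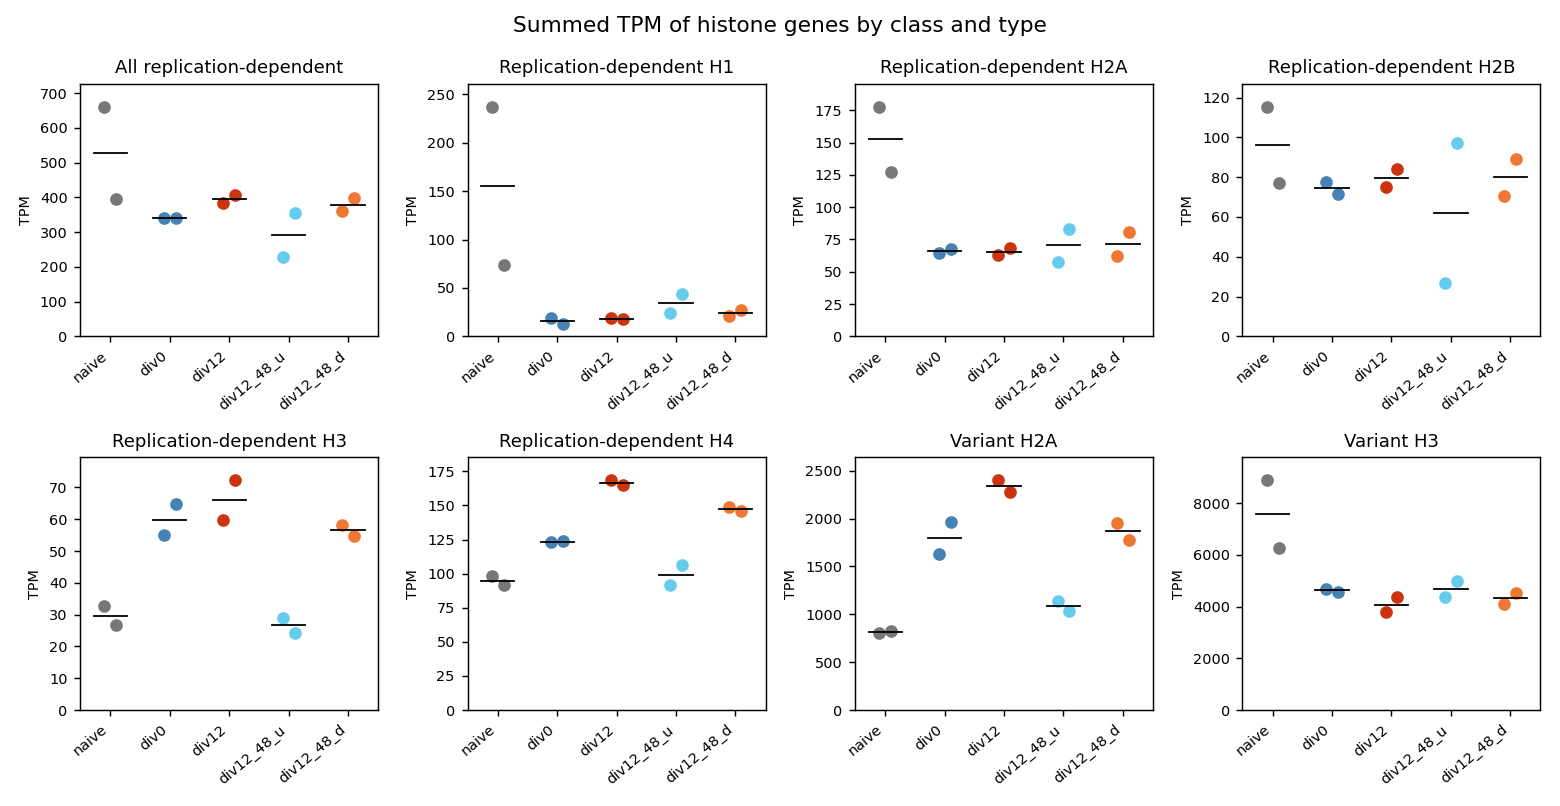
Summed TPM of histone genes by class and type (y axes, linear from 0) in the 5 groups (x axes), with 1 point per library and a line at the group mean. Replication-dependent H3 and H4 and variant H2A are lower in naive and div12_48_u than in the other groups, whereas replication-dependent H1 and variant H3 have their highest point in a naive library.

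Types of replication-dependent histone differed in which groups were high. Replication-dependent H3 genes summed to 32.6 and 26.9 TPM in naive, 54.95 and 64.8 in div0, 59.8 and 72.2 in div12, 29.1 and 24.1 in div12_48_u, and 58.1 and 54.9 in div12_48_d. H4 genes summed to 98.1 and 91.7 TPM in naive, 123 and 124 in div0, 168 and 165 in div12, 91.8 and 106.5 in div12_48_u, and 149 and 146 in div12_48_d. For both core types naive and div12_48_u did not overlap with the 3 other groups. In H4 this rested on Hist1h4i, which stood at 62.8 and 38.2 TPM in naive, 136 and 109 in div12, and 64.7 and 64.6 in div12_48_u. Without Hist1h4i, the H4 sums of all groups overlapped. H1 genes, by contrast, summed to 237 and 73.7 TPM in naive and to between 12.7 and 43.95 TPM in every other library. H2B genes summed to 115.5 and 76.8 TPM in naive, 77.7 and 71.7 in div0, and 75.2 and 84.0 in div12. In Phase II they summed to 26.65 and 97.0 TPM in div12_48_u and 70.7 and 89.3 in div12_48_d, so all groups overlapped for H2B. H2A genes summed to 178 and 127 TPM in naive and to between 57.4 and 83.3 TPM elsewhere. Most of the naive excess lay in 2 genes, Hist1h1c and Hist2h2ac, which held 48.6% and 35.3% of replication-dependent TPM in naive, 10.1% and 7.04% in div0, 6.21% and 4.04% in div12, 22.1% and 23.8% in div12_48_u, and 6.53% and 14.2% in div12_48_d. This pair was singled out after its values were seen. Without the pair, the replication-dependent sum was 298 ± 59.4 TPM for naive, 311 ± 7.88 for div0 and 376 ± 20.7 for div12. In Phase II it was 224.5 ± 64.9 TPM for div12_48_u and 339 ± 3.45 for div12_48_d.

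Among all tested histone genes, H2afz was the 1 called in each of the 6 comparisons below. H2afz (chr3:137864487-137866922), which encodes H2A.Z.1, a variant placed around transcription start sites, stood at 478 and 488 TPM in naive, 1023 and 1202 in div0, 1660.4 and 1704 in div12, 641 and 571 in div12_48_u, and 1312 and 1111 in div12_48_d. Its libraries were lowest in naive, next lowest in div12_48_u and highest in div12, with no overlap between any of these and another group. H2afv (chr11:6427226-6444511), the gene of the sister protein H2A.Z.2, stood at 90.7 and 105 TPM in naive, 150.1 and 175 in div0, 191 and 180.1 in div12, 145 and 151 in div12_48_u, and 191 and 204 in div12_48_d. H2afv had the same lowest group as H2afz over a smaller range, and its div0 and div12_48_u libraries overlapped.

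H2afx (chr9:44334715-44336077), the H2A form that is phosphorylated at DNA breaks, stood at 153 and 141 TPM in naive, 376 and 503 in div0, 473 and 315 in div12, 266 and 229 in div12_48_u, and 358 and 380.3 in div12_48_d. H2afx was lowest in naive and next lowest in div12_48_u, and the div0, div12 and div12_48_d libraries overlapped. H2afj (chr6:136808248-136810074), another H2A variant, kept between 74.3 and 93.3 TPM in all 10 libraries.

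The H3.3 genes had the opposite high group. H3f3a (chr1:180802560-180813605) stood at 5386 and 4749.7 TPM in naive, 3509 and 3532 in div0, 2747 and 3184 in div12, 3239 and 3718 in div12_48_u, and 3068 and 3404 in div12_48_d. H3f3b (chr11:116021961-116026039), a separate gene for the same protein, stood at 3487 and 1516 TPM in naive, 1179 and 1041 in div0, 1040.5 and 1181 in div12, 1145 and 1271 in div12_48_u, and 1037 and 1127 in div12_48_d. Naive was highest for both genes with no overlap, and the naive replicates of H3f3b differed by more than those of any other group. H3f3b made up 39.3% and 24.2% of the summed TPM of both H3.3 genes in naive and 22.8% to 27.5% in the other libraries. The remaining variants were low. H1f0, a linker histone of quiescent and differentiated cells, lay between 11.2 and 29.5 TPM, H3f3c between 0.197 and 4.62 TPM, and H1foo, the oocyte linker histone, was above 0 in 1 library only.

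**Figure D2:**
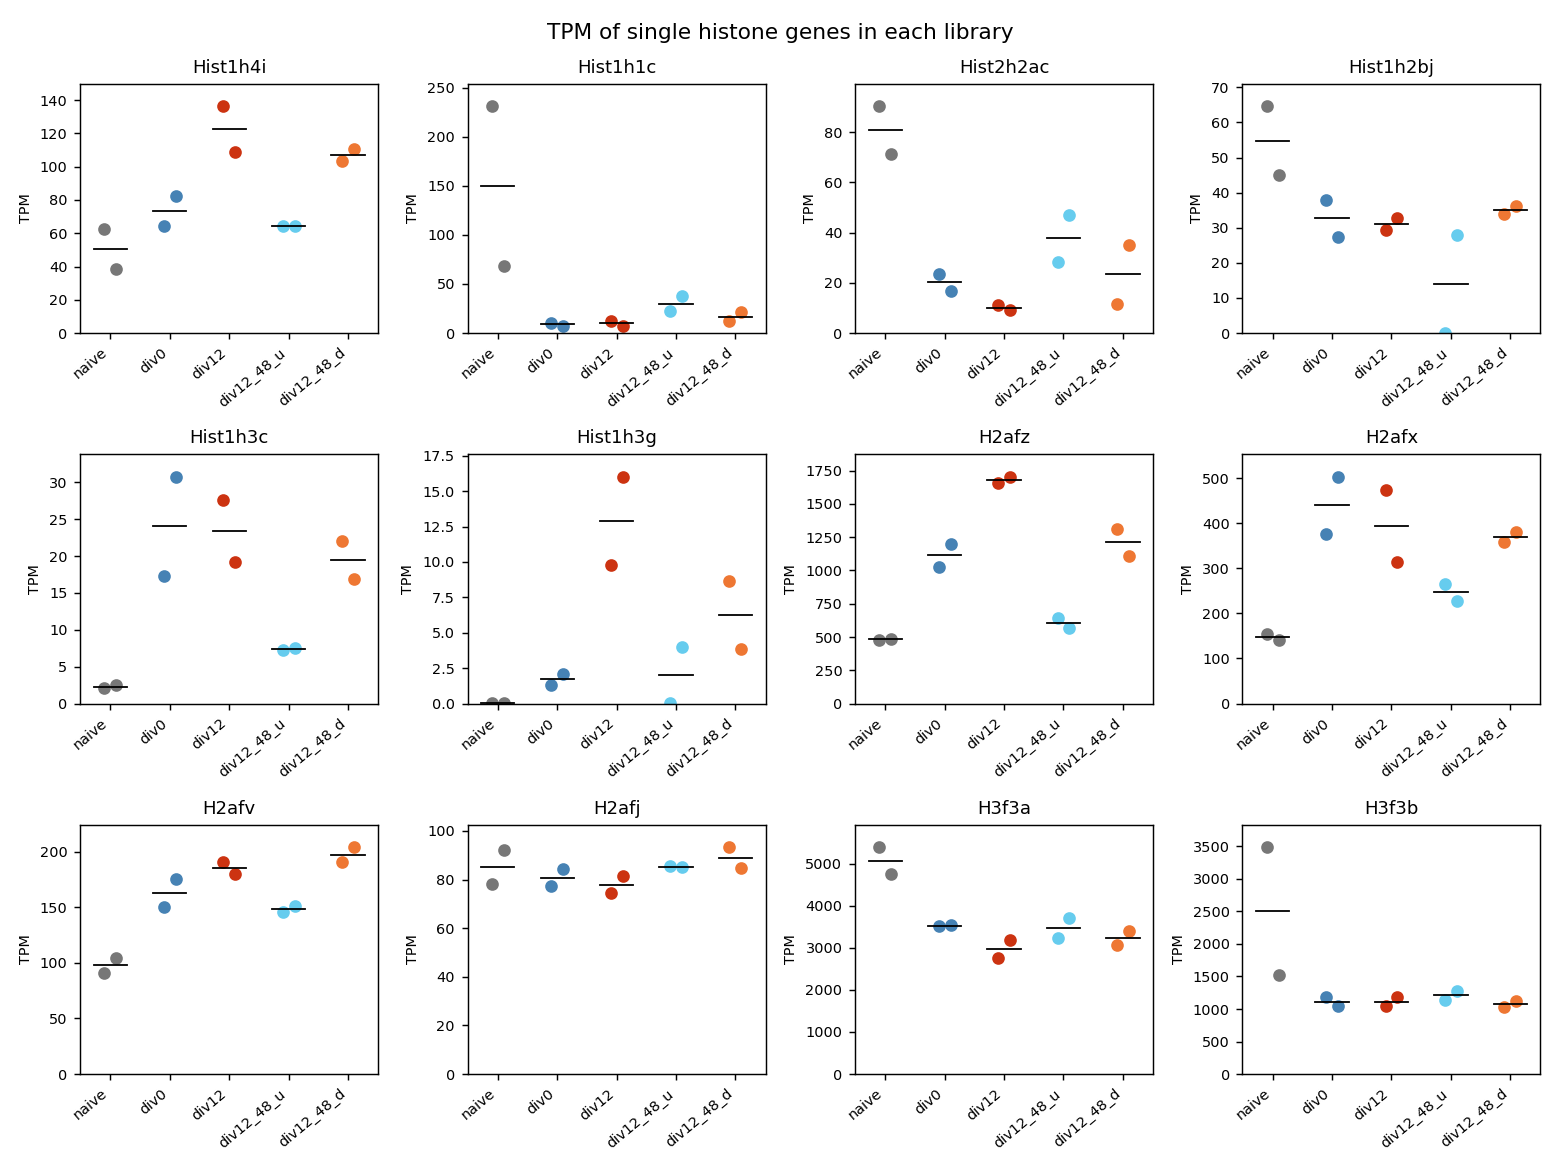
TPM of 12 histone genes (y axes, linear from 0) in the 5 groups (x axes), with 1 point per library and a line at the group mean. H2afz, Hist1h4i and Hist1h3c are lower in div12_48_u than in div12 and div12_48_d, Hist1h1c and Hist2h2ac are highest in naive, and H2afj is nearly level.

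Among replication-dependent genes, Hist1h4i had the highest mean level. This H4 gene (chr13:22040960-22041362) stood at 62.8 and 38.2 TPM in naive, 64.2 and 82.6 in div0, 136 and 109 in div12, 64.7 and 64.6 in div12_48_u, and 103 and 110.5 in div12_48_d. Its div12 and div12_48_d libraries overlapped and lay above the 6 others. Hist1h3c (chr13:23745042-23745521), an H3 gene, stood at 2.09 and 2.51 TPM in naive, 17.3 and 30.8 in div0, 27.6 and 19.2 in div12, 7.29 and 7.53 in div12_48_u, and 22.0 and 16.8 in div12_48_d. Naive was lowest and div12_48_u next, and the 3 other groups overlapped.

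Hist1h1c (chr13:23738807-23739531), which encodes the linker histone H1.2, stood at 231 and 68.6 TPM in naive, 10.4 and 7.18 in div0, 12.7 and 7.45 in div12, 22.4 and 37.4 in div12_48_u, and 11.96 and 21.6 in div12_48_d. Hist2h2ac (chr3:96220413-96220880), an H2A gene, stood at 90.4 and 71.3 TPM in naive, 23.7 and 16.8 in div0, 11.2 and 8.99 in div12, 28.3 and 47.1 in div12_48_u, and 11.6 and 35.1 in div12_48_d. Both genes were highest in naive. In div12_48_u both lay above div12 without overlap.

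Hist1h2bj (chr13:22043198-22043658), an H2B gene, stood at 64.6 and 44.9 TPM in naive, 38.0 and 27.4 in div0, 29.2 and 32.7 in div12, 0.0219 and 27.9 in div12_48_u, and 33.8 and 36.3 in div12_48_d. Hist1h2an (chr13:21786774-21787248), an H2A gene, stood at 53.9 and 33.8 TPM in naive, 28.4 and 25.5 in div0, 25.4 and 31.5 in div12, 14.1 and 16.7 in div12_48_u, and 24.9 and 22.5 in div12_48_d. Hist1h2af (chr13:23533875-23534378), also H2A, ranged from 11.5 TPM in div0 replicate 1 to 32.8 TPM in naive replicate 1. The drop of Hist1h2bj in 1 div12_48_u library to nearly 0 has counterparts in other members.

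Replicates of 16 of the 36 replication-dependent genes disagreed in this way in at least 1 group, with under 0.05 TPM in one library and at least 1 TPM in the other. It happened in 22 of their 180 group values and in 0 of 45 for variants. These 16 genes shared a median of 59.9% (24.6% to 87.6%) of the 50-base words of their transcripts with another gene, against 30.45% (0% to 100%) in the 20 others and 4.19% (0% to 31.8%) in the 8 variants with a value. The reads were 50 bases long, so where relatives share such words, their reads can be split between genes, and the level of a single member is uncertain. Whether sharing produced the near-0 replicates was not tested. Hist1h2an (85.8%) and Hist1h2af (79.7%) had no such replicate, whereas Hist1h4j (24.6%) and Hist1h3d (24.8%) did. Hist1h4i (28.9% shared), Hist1h1c (8.54%) and H2afv (0%) are less exposed than Hist1h2bj (59.4%), Hist1h2an (85.8%) or Hist1h2bl (82.8%). H2afz shared 31.8% of its words, the most of any variant with a value.

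**Figure D3:**
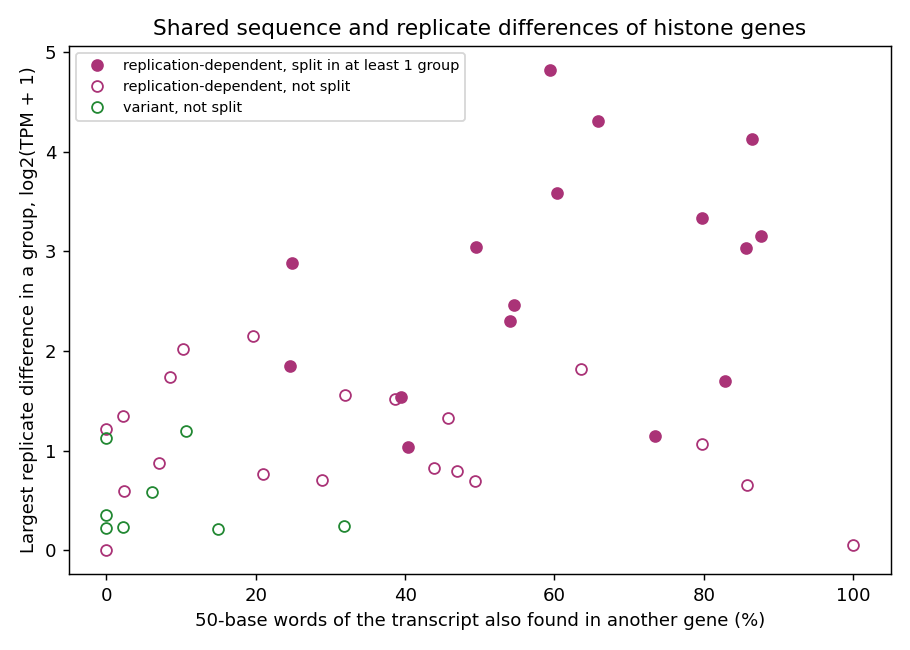
Share of 50-base words of each histone transcript that also occur in another gene (x axis, %) against the largest difference between replicates of any group (y axis, log2(TPM + 1)), with 1 point per gene. Filled points are the 16 replication-dependent genes with a replicate near 0 in at least 1 group, all of them at 24.6% or more on the x axis, and open points are the others by class.

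Activated but undivided cells were compared with resting cells first (div0 against naive). Of 32 replication-dependent genes 5 rose (15.6%) and 6 fell (18.8%), where 54.9% of all genes tested were called, 15.4% higher and 39.6% lower. Of 8 variants 3 rose (37.5%) and 2 fell (25%). The share of replication-dependent genes that rose was thus near the background. With median-ratio scaling, which moves the median of all genes up by 0.24, 8 rose (25.0%) and 3 fell (9.4%), where 26.9% of all genes rose and 24.5% fell. Median changes were 0.15 for replication-dependent genes, 0.33 for variants and -0.24 for all genes.

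In the H2A variants H2afx rose by 1.56 ± 0.20 (adjusted p = 4.12e-04), H2afz by 1.20 ± 0.11 (adjusted p = 8.29e-05) and H2afv by 0.73 ± 0.11 (adjusted p = 7.78e-04), while H2afj went from 85.4 ± 9.90 to 80.8 ± 4.92 TPM and was not called. H3f3a fell (-0.52 ± 0.11) and H3f3b fell (-1.05 ± 0.31), and with that scaling both calls were lost (adjusted p = 0.191 and 0.0854). Among replication-dependent genes, Hist1h3c rose most (2.87 ± 0.28, adjusted p = 1.08e-04). Hist1h4b, an H4 gene, rose from 0.00773 and 0.00990 TPM to 2.71 and 7.33 TPM (2.46 ± 0.91). Hist1h4d, also H4, rose from 1.74 and 10.1 to 19.2 and 11.8 TPM (1.55 ± 0.56), and the H2B gene Hist1h2bm from 2.83 and 1.31 to 4.65 and 8.02 TPM (1.27 ± 0.36). The H3 gene Hist1h3f rose from 0.408 and 0.118 to 0.824 and 1.96 TPM (0.89 ± 0.33). Groups did not overlap for any of these 5, nor for several members that were not called, such as Hist1h1b and Hist1h2bj. The call of Hist1h3c held in every alternative, whereas that of Hist1h4d was lost in 13 of 18, a replicate block among them, that of Hist1h3f in 12 of 17, that of Hist1h4b in 9 of 17 and that of Hist1h2bm in 3 of 18.

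Hist1h1c fell most (-3.72 ± 0.55, adjusted p = 8.71e-04), followed by Hist2h2ac (-1.95 ± 0.45, adjusted p = 0.00697). The H4 genes Hist1h4j (from 2.10 and 2.33 to 0.00412 and 0.00492 TPM) and Hist1h4a (from 1.54 and 2.14 to 0.00613 and 0.00689 TPM) also fell, as did the H3 gene Hist2h3c2 (from 16.2 and 8.08 to 2.81 and 3.74 TPM) and Hist1h2an (-0.65 ± 0.22). Beside these falls from naive, 12 of 13 myeloid, 5 of 5 erythroid, 4 of 4 NK and 5 of 6 plasma cell markers fell too, as did 3 of 6 T cell, 2 of 2 platelet and 4 of 8 B cell markers. C1qa, a macrophage gene, was at 0 in all 8 cultured libraries. The immediate early gene Fos, chosen after its values were seen, stood at 970.4 and 1702 TPM in naive and at 1.25 to 57.3 TPM in the cultured libraries. The part of these markers and of Fos in the histone values was not tested. In bulk RNA, fewer cells of a type and less RNA per cell cannot be told apart.

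The divided Phase I cells were compared with the same naive libraries (div12 against naive), so both comparisons share their control. Of 32 replication-dependent genes 9 rose (28.1%) and 5 fell (15.6%), where 66.9% of all genes were called, 19.4% higher and 47.5% lower. Of 8 variants 3 rose (37.5%) and 2 fell (25%), the same genes as in div0. With median-ratio scaling, which moves the median of all genes up by 0.35, 10 replication-dependent genes rose (31.2%) and 3 fell (9.4%), where 33.6% of all genes rose and 30.9% fell. Median changes were 0.40, 0.38 and -0.35 for replication-dependent, variant and all genes.

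H2afz rose by 1.80 ± 0.11 (adjusted p = 6.26e-06), H2afx by 1.39 ± 0.20 and H2afv by 0.92 ± 0.11. H3f3a fell by 0.77 on the log2 scale (SE 0.11) and H3f3b by 1.05 (SE 0.31), and with that scaling these calls were lost (adjusted p = 0.0508 and 0.116). Hist1h3g (chr13:23535418-23535909), an H3 gene, had the largest rise (3.74 ± 0.66, adjusted p = 0.00118), from 0.0173 and 0.0131 TPM in naive to 9.81 and 16.02 TPM in div12. In div0 it stood at 1.31 and 2.11 TPM, in div12_48_u at 0.0132 and 3.98 TPM and in div12_48_d at 8.68 and 3.84 TPM. Hist1h3c rose by 2.87 ± 0.28 and Hist1h4i by 1.30 ± 0.22. By type, 4 of 10 H3, 3 of 10 H4 and 2 of 5 H2B genes rose, and 0 of 4 H1 and 0 of 3 H2A genes did. The other risers were Hist1h3b and Hist1h3e (H3), Hist1h4b and Hist1h4f (H4), and Hist1h2bl and Hist1h2bm (H2B), with div12 means between 3.04 and 7.48 TPM.

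Hist1h1c fell by 3.56 on the log2 scale (SE 0.55) and Hist2h2ac by 2.88 (SE 0.45). Hist2h3c2 fell to 1.70 and 1.29 TPM, and Hist1h4a to 0.00532 and 1.07 TPM. Hist1h2an fell from 43.8 ± 14.2 to 28.4 ± 4.32 TPM, a call lost in 14 of 18 alternatives, a replicate block among them. The 3 falling genes of the Hist2 and H1 groups, Hist1h1c, Hist2h2ac and Hist2h3c2, kept their calls in every alternative run for div12. With div0, Hist1h1c kept its call in every alternative, Hist2h2ac lost it without div0 replicate 2, and Hist2h3c2 lost it under 10 alternatives. Of 13 myeloid markers 11 fell here, with 5 of 5 erythroid, 4 of 4 NK and 7 of 8 B cell markers, and their part in these values was not tested.

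**Figure D4:**
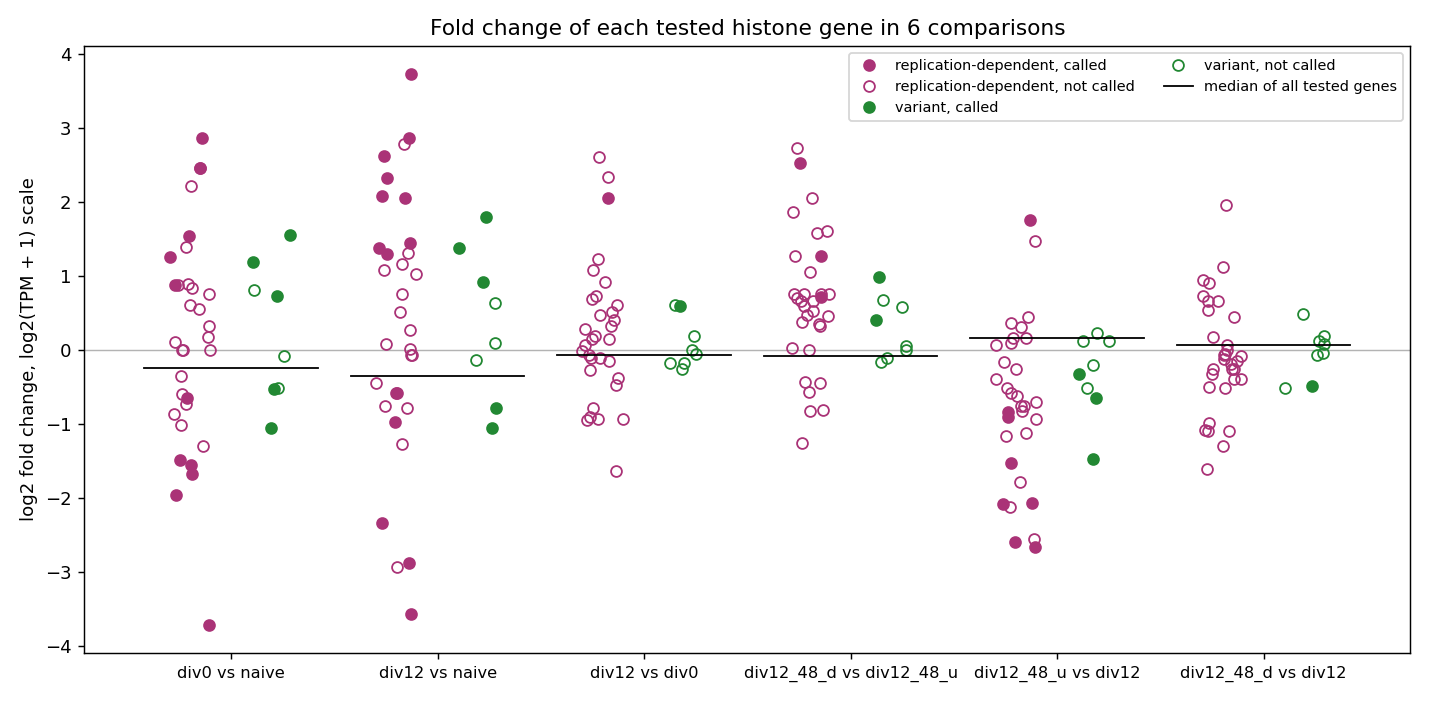
Log2 fold change of each tested histone gene on the log2(TPM + 1) scale (y axis) in 6 comparisons (x axis), replication-dependent on the left and variant on the right of each column. Filled points passed the adjusted p threshold, and the line is the median of all 4427 genes, -0.24 in the first column and 0.16 in the fifth. Called genes lie on both sides in the naive comparisons, all above 0 in div12_48_d against div12_48_u, and all but Hist2h2ac below 0 in div12_48_u against div12.

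Divided and undivided Phase I cells came from the same stimulus and time (div12 against div0). Of 32 replication-dependent genes 1 rose (3.1%) and 0 fell, and of 8 variants 1 rose (12.5%) and 0 fell, where 8.76% of all genes were called, 3.68% higher and 5.08% lower. With median-ratio scaling 7.8% of all genes were higher and 4.0% lower. Of 8 B cell markers 3 fell. H2afz rose from 1113 ± 126 to 1682 ± 30.8 TPM (0.60 ± 0.11, adjusted p = 0.0208). Hist1h4f, the H4 gene that entered the test through div12, went from 0.00200 and 0.00207 to 2.09 and 4.64 TPM (2.06 ± 0.46, adjusted p = 0.0361), which supports nothing further. Hist1h4i (73.4 ± 13.1 and 122.6 ± 19.4 TPM, adjusted p = 0.0744) and Hist1h3g (1.71 ± 0.57 and 12.9 ± 4.39 TPM, adjusted p = 0.0600) were not called. Their groups did not overlap, and neither did those of other uncalled members such as Hist1h1b and H1f0. The H2afz call was lost without any single div0 or div12 library and when only these groups were fitted, and that of Hist1h4f without any single div0, div12 or div12_48_u library, with no filter and with a replicate block.

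In Phase II the cells that divided again were set against those that did not (div12_48_d against div12_48_u). Of 32 replication-dependent genes 3 rose (9.4%) and 0 fell, and of 8 variants 2 rose (25%) and 0 fell, where 25.6% of all genes were called, 12.2% higher and 13.4% lower. With median-ratio scaling 15.2% of all genes were higher and 10.8% lower, and 3 replication-dependent genes and 3 variants rose. The median change was 0.67 for replication-dependent genes, 0.23 for variants and -0.08 for all genes. H2afz rose from 606 ± 49.5 to 1211 ± 142 TPM (0.99 ± 0.11, adjusted p = 9.98e-04), a 1.99-fold change, and H2afv from 148 ± 4.18 to 197 ± 9.31 TPM (0.41 ± 0.11, adjusted p = 0.0252). Hist1h3c rose from 7.41 ± 0.169 to 19.4 ± 3.65 TPM (1.27 ± 0.28, adjusted p = 0.0130) and Hist1h4i from 64.6 ± 0.0237 to 107 ± 4.97 TPM (0.72 ± 0.22, adjusted p = 0.0472). Hist1h2bl, an H2B gene, rose from 0.0280 and 0.0136 to 8.39 and 2.70 TPM (2.53 ± 0.63, adjusted p = 0.0212). H2afx (247 ± 26.5 and 369 ± 15.7 TPM, adjusted p = 0.0650) was not called and its groups did not overlap. H1f0 stood at 16.1 ± 0.442 and 26.6 ± 4.12 TPM (adjusted p = 0.153). The H2afz call held in every alternative, while those of Hist1h3c, Hist1h2bl and H2afv were lost without either div12_48_u library and without div12_48_d replicate 1, and that of H2afv also without div12_48_d replicate 2. The call of Hist1h4i was lost in 12 of 19 alternatives, a replicate block among them. Beside these rises, 3 of 6 plasma cell and 2 of 6 T cell markers rose and 4 of 8 B cell markers fell. The 2 T cell markers were Cd5 (28.5 to 72.5 TPM) and Il7r (3.48 to 13.1 TPM). Cd3e (0.0579 and 0.325 TPM), Cd4 (1.06 and 0.540 TPM), Cd8a and Lck were not called. Jchain, the joining chain of secreted antibody, rose from 24.5 and 31.1 to 378.5 and 464.4 TPM (3.88 ± 0.43, adjusted p = 0.00104). The part of these markers in the histone values was not tested.

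Cells that stopped dividing in Phase II were compared with the div12 cells they came from (div12_48_u against div12). Of 32 replication-dependent genes 7 fell (21.9%) and 1 rose (3.1%), and of 8 variants 3 fell (37.5%) and 0 rose, where 41.3% of all genes were called, 13.6% lower and 27.7% higher. Medians were -0.72 for replication-dependent, -0.26 for variant and 0.16 for all genes. Median-ratio scaling moves the median of all genes down by 0.17 and left the histone counts as they were, but 22.0% of all genes then fell and 17.8% rose, so the share of replication-dependent genes that fell was at the background. Of 8 B cell markers 5 rose and 1 fell, and 2 of 6 plasma cell markers rose, whose part in the histone values was not tested.

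H2afz fell by 1.47 on the log2 scale (SE 0.11, adjusted p = 1.03e-04), H2afx by 0.64 (SE 0.20, adjusted p = 0.0304) and H2afv by 0.32 (SE 0.11, adjusted p = 0.0410). Hist1h3i, an H3 gene, had the largest fall (-2.66 ± 0.81), from 4.29 and 6.84 to 0.0149 and 0.0170 TPM, and Hist1h3g fell by 2.59 (SE 0.66). Hist1h3c fell (-1.52 ± 0.28, adjusted p = 0.00334) and Hist1h4i fell (-0.90 ± 0.22, adjusted p = 0.0125). Hist1h2an (-0.84 ± 0.22), Hist1h2bl (-2.07 ± 0.63) and Hist1h4f (-2.06 ± 0.46) fell as well. Hist1h4f entered the test through div12, so its fall from div12 is a description only. Hist2h2ac was the 1 member to rise, from 10.1 ± 1.59 to 37.7 ± 13.3 TPM (1.76 ± 0.45, adjusted p = 0.0147). Hist1h1c stood at 10.1 ± 3.70 and 29.9 ± 10.6 TPM (adjusted p = 0.0607) and was not called. The calls of H2afz and Hist1h3c held in every alternative, and each of the others was lost without at least 1 of the libraries compared.

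Cells that divided again were set against the same div12 libraries (div12_48_d against div12). By limma 0 of 32 replication-dependent genes were called, with 1 at an unadjusted p under 0.05, and 1 of 8 variants fell (12.5%), where 15.9% of all genes were called, 11.9% higher and 4.09% lower. With median-ratio scaling, which moves the median of all genes down by 0.11, 9.7% were higher and 10.1% lower, and the histone counts were as before. Of 6 plasma cell markers 3 rose. The variant was H2afz, from 1682 ± 30.8 to 1211 ± 142 TPM (-0.48 ± 0.11, adjusted p = 0.0224), a call lost without either div12 library, without div12_48_d replicate 2 and when only these groups were fitted. Hist1h4i stood at 122.6 ± 19.4 and 107 ± 4.97 TPM and Hist1h3c at 23.4 ± 5.90 and 19.4 ± 3.65 TPM, with overlap in both.

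Whether division went with a different change in Phase II than in Phase I was tested as the difference of the 2 division contrasts. By limma 0 of 40 histone genes were called, and 0 of all 4427 genes (0%). With median-ratio scaling 15 of all genes were higher and 7 lower, with 0 histone genes among them. At an unadjusted p under 0.05 there were 6 histone genes, against 9.89% of all genes. They were Hist1h3a, Hist1h3c, Hist1h3f, Hist1h4h, H2afx and H2afz. The contrast of H2afz was 0.99 in Phase II and 0.60 in Phase I, a difference of 0.39 ± 0.16 (adjusted p = 0.414).

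Genes of histone mRNA transcription and processing, with cyclin E and Cdk2, were described from a list of 27, of which 9 were listed and tested. Against naive, 5 rose and 2 fell in div0, where 15.4% of all genes rose and 39.6% fell. In div12 6 rose and 2 fell, where 19.4% of all genes rose and 47.5% fell. From div0 to div12 3 rose (Slbp, Cdk2 and the cyclin E gene Ccne2) and 0 fell, where 3.68% of all genes rose. From div12_48_u to div12_48_d 4 rose (the same with Ccne1, also cyclin E) and 0 fell, where 12.2% of all genes rose. From div12 to div12_48_u 2 rose and 5 fell, and from div12 to div12_48_d 0 rose and 1 fell, which was Slbp (-0.42 ± 0.08, adjusted p = 0.01). Npat, also on the list, was not called in any comparison, with group means between 31.1 and 35.8 TPM. Slbp, whose protein binds the stem-loop, stood at 162 and 160.4 TPM in naive, 269 and 288 in div0, 363 and 396.5 in div12, 203 and 198 in div12_48_u, and 293 and 275 in div12_48_d, with no overlap except between div0 and div12_48_d. It rose from div0 to div12 (0.45 ± 0.08, adjusted p = 0.0205) and from div12_48_u to div12_48_d (0.50 ± 0.08, adjusted p = 0.00385), and fell from div12 to div12_48_u (-0.91 ± 0.08, adjusted p = 1.80e-04). Cdk2, the kinase that acts with cyclin E at entry into S phase, stood at 141 ± 24.5 TPM for naive, 179 ± 5.34 for div0 and 252 ± 4.41 for div12. In Phase II it had 148 ± 13.4 TPM for div12_48_u and 202 ± 5.83 for div12_48_d. Cpsf1, a subunit of the cleavage machinery, ran the other way, from 180 ± 0.598 TPM in naive to 114 ± 20.2 in div12.

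Histone chaperones and deposition factors were described from a list of 35, of which 12 were listed and tested. Against naive, 5 rose and 1 (Ubn2) fell in div0, where 15.4% of all genes rose and 39.6% fell. In div12 6 rose and 4 (Ubn1, Ubn2, Daxx and Ep400) fell, where 19.4% of all genes rose and 47.5% fell. Between divided and undivided cells 2 rose and 0 fell in Phase I, where 3.68% of all genes rose and 5.08% fell. In Phase II 2 rose and 2 (Ubn2 and Atrx) fell, where 12.2% of all genes rose and 13.4% fell. From div12 to div12_48_u 5 rose and 5 fell, and from div12 to div12_48_d 0 rose and 2 fell. Npm1, an abundant nucleolar chaperone, stood at 1549 ± 7.12 TPM for naive, 2457 ± 103 for div0 and 3708 ± 44.4 for div12. In Phase II it had 2234 ± 7.83 TPM for div12_48_u and 3354 ± 185 for div12_48_d. Nap1l1, a chaperone of H2A and H2B, rose from 633 ± 25.8 TPM in div12_48_u to 869 ± 8.12 in div12_48_d (0.46 ± 0.07, adjusted p = 0.00410). Ssrp1, a subunit of the FACT complex, rose against naive by 0.76 ± 0.09 in div0 and by 1.06 ± 0.09 in div12.

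S phase markers, genes of DNA replication, were set beside the histones. Of 15 tested from a list of 24, 13 rose and 1 fell against naive in div0 and likewise in div12, where 15.4% and 19.4% of all genes rose. From div0 to div12 9 rose and 0 fell, and from div12_48_u to div12_48_d 13 rose and 0 fell, where 3.68% and 12.2% of all genes rose. From div12 to div12_48_u 0 rose and 13 fell, and from div12 to div12_48_d 0 rose and 7 fell, where 13.6% and 4.09% of all genes fell. Their sum was 2070.0 and 1829 TPM in naive, 3787 and 4477 in div0, 6478 and 5848 in div12, 2512 and 2235 in div12_48_u, and 4738 and 4447 in div12_48_d. Naive was lowest, div12_48_u next and div12 highest without overlap, as for H2afz. The part of the share of cells in S phase in the histone values was not tested.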

How the data were processed

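Ribosomal RNA was depleted from 100 ng of total RNA per library and 50-base single-end reads were made, per the labels' protocols. The authors deposited TPM by transcript. Tools named in the submitters' processing notes are DESeq2, featureCounts, HISAT2, HTSeq and Salmon, with the build mm10. The tool that made the TPM (with its version and strand setting) is not given in the sources used here. The deposited table holds 13128 transcripts with values. Of these, 13065 with a usable symbol were summed into 6610 genes. It lists 36 of 67 replication-dependent and 8 of 15 variant protein-coding histone genes of GENCODE M21, and the others were not analysed here. TPM keeps no counts, so no interval or count model is given.

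Limma 3.58.1 in R 4.3.3 was fitted to log2(TPM + 1) of the 4427 genes reaching 1 TPM in 2 or more libraries, over all 10 libraries, by group alone, with a trend in the empirical Bayes step and Benjamini-Hochberg adjustment. The fit was tested on simulated data. Leaving out a library leaves 1 in its group, which is then assumed to vary as the other groups do. Alternatives were a pseudocount of 0.1 or 5, no filter, a filter at 5 TPM, median-ratio scaling, the compared groups alone, a replicate block, the most abundant transcript, each library left out, and, chosen after seeing the data, a fit without naive.

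Stem-loops, stop codons and 50-base words were read from GENCODE M21 transcripts, and promoters and coordinates from RefSeq (GRCm38.p6). H3f3c matched no coding transcript, and Hist1h3a, Hist1h3f and H2afx no promoter window. Named genes are the 6 of each class with the highest mean TPM, per comparison the 2 largest called rises and falls of each class, and members called against most of their class, with up to 4 of the most abundant members of each list. Further list members are named where the count of a list is broken down. Members and lists were chosen with earlier results of these data known. Software was Python 3.11.15 with matplotlib 3.10.9, numpy 2.4.6 and pandas 2.3.3.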

Additional observations from a re-analysis of the deposited data

How the results depend on the processing

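Of 54 calls of a histone gene in a comparison, 19 held under every alternative run, 35 were lost under at least 1, and 0 reversed. With 1 library left out at a time, counts of called genes for div0 against naive ran from 4 to 10 for replication-dependent genes and 4 to 6 for variants, and for div12 against naive from 9 to 15 and 4 to 7. They ran from 0 to 3 and 0 to 1 for div12 against div0, from 1 to 5 and 1 to 3 for div12_48_d against div12_48_u, from 3 to 10 and 1 to 3 for div12_48_u against div12, and from 0 to 2 and 0 to 1 for div12_48_d against div12. For the difference of the division contrasts they ran from 0 to 2 histone genes.

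For replication-dependent genes in div0 against naive (11 called), 5 were called with no filter and 7 with a filter at 5 TPM. For those in div12 against div0 (1 called), 2 were called with a pseudocount of 5, 2 with median-ratio scaling, 2 without naive, 4 with the compared groups alone, and 0 with no filter or a filter at 5 TPM. Without naive, 5 replication-dependent genes were called in div12_48_d against div12_48_u (3 called). With the compared groups alone, 2 replication-dependent genes (0 called) and 0 variants (1 called) were called in div12_48_d against div12, and 0 variants (1 called) in div12 against div0. With no filter 1 variant (3 called) was called in div12_48_u against div12. The cause was not tested.

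With median-ratio scaling 3 variants were called against naive in div0 and 3 in div12 (5 each), because H3f3a and H3f3b dropped out, and replication-dependent genes split into 8 higher and 3 lower in div0 and 10 higher and 3 lower in div12. These rises were 25.0% and 31.2% of the genes, against 26.9% and 33.6% of all genes, and the falls 9.4% each, against 24.5% and 30.9%. Under that scaling, summed replication-dependent TPM was 351.2 in div0 and 444 in div12, and summed variant TPM 6656 and 7222.

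With the replicate number as a block, 0 replication-dependent genes were called in div12 against div0 (1 called), and no other count moved by over 1.5 times. Same-numbered libraries correlated over 0.1 in 3 of 10 pairs of groups (-0.24 to 0.20). With 2 libraries per group this cannot settle whether a number marks a shared pool, and the labels do not say. Depth is unknown, and low or shared members are limited most.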
